A study of Mus musculus with 7 samples.

Results

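The genes described here were those at a higher level in every library from LIT927-treated mice than in any library from vehicle-treated mice. A gene was selected on its measured values: its lowest value in the 4 LIT927 libraries had to exceed its highest value in the 3 vehicle libraries, and its mean over the 7 libraries had to be at least 1 FPKM (fragments scaled to gene length and to the size of the library). Fgfbp1, symbols starting with Gm and a number, and symbols containing Rik or -ps were left out. The rule chose 100 of the 10861 genes that passed this floor with a kept symbol, out of 16019 genes in all, or 0.921% (percent of the genes tested). Because the rule used the contrast itself, the differences of these genes are given as a description, with no test, and nothing is read from their direction.

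The libraries were made from total RNA of prostates of mice in which experimental autoimmune prostatitis (EAP), an immune inflammation of the gland, had been induced, and all 7 samples share this background. The treated group, with 4 libraries (replicates 1 to 4), received LIT-927, a neutraligand that captures the chemokine CXCL12 away from its receptor CXCR4, intraperitoneally at 25 mg/kg per day for 14 days; its libraries are called LIT927 as in the labels. The other group, with 3 libraries (replicates 1, 3 and 4), received the solvent methyl-β-cyclodextrin for the same 14 days and is called vehicle here. Strain, age and genotype are not given in the labels, untreated or non-inflamed animals were not analysed here, and the labels do not state that the libraries come from different animals. The spread between libraries may therefore be technical in part.

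CXCL12 acts through the receptors CXCR4 and ACKR3 and draws leukocytes into inflamed tissue. The mouse prostate is a set of epithelial glands embedded in smooth muscle and fibrous stroma, whose luminal cells make a few secretory transcripts in very large amounts. Because FPKM are shares of a library, the level of every other gene falls when such transcripts take more of it, and in bulk tissue fewer cells of a type and less RNA per cell cannot be told apart.

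Several libraries stood apart from the rest. Vehicle replicate 4 held the lowest value of its group for 89.5% of the genes tested and vehicle replicate 1 the highest for 75.04%, while LIT927 replicate 3 was lowest of its group for 66.0%. Vehicle replicate 3 and LIT927 replicate 3 had uroplakin Upk1a, a bladder lining gene, at 172.3 and 253.1 FPKM against 2.64 to 10.1 in the other 5, and Akr1b7, an abundant vas deferens gene, at 84.5 and 15.9 FPKM against 1597 or more. Whole fragments recovered from the values summed to 32023785 to 35240765 per library, so depth was even, and the lowest value of any member rested on 13 fragments (Neu2 and Prss22 in vehicle replicate 4). Prostate luminal markers summed to 6714 FPKM or more in every library, and seminal vesicle markers, of a gland beside the prostate, to 51370 FPKM or more. None of the 17 cell type marker lists held a member, where 0.921% of all genes tested were members. The summed T and NK cell markers ran from 27.3 to 49.1 FPKM in vehicle and from 11.2 to 23.3 in LIT927, with 13 of 13 genes at a lower mean. Of the 17 lists looked at, this was the only one whose sums did not overlap between the groups. Only 5 of its 13 genes passed the floor, and 0 of these were lower in every LIT927 library. Over all genes tested 0.912% were, so 0 of 5 says little. Marker genes lower in every LIT927 library were in other lists: Tnni2 (skeletal muscle), Hbb-bs (erythrocyte), Cd68 (macrophage) and S100a9 (neutrophil). The sums of macrophage markers (137 to 392.1 in vehicle, 46.4 to 143.1 in LIT927, 10 of 10 lower) and fibroblast markers (140.9 to 694.5 and 85 to 324.7, 14 of 14 lower) overlapped between the groups. So did those of smooth muscle (10 of 10 lower), endothelium (12 of 12), skeletal muscle (11 of 11), nerve and Schwann (10 of 10), erythrocyte (6 of 6) and B and plasma cell markers (7 of 7). These counts include genes under the floor, which was passed by 6 of 10 nerve and Schwann, 4 of 6 erythrocyte and 2 of 7 B and plasma cell genes. Over all genes tested, 63.8% had a higher mean log2 level in LIT927. Most of the remaining lists had genes going both ways. Vas deferens and epididymis markers went the other way, with 11 of 11 genes at a higher mean in LIT927; their sums were 10390, 583.1 and 2815 FPKM in vehicle replicates 1, 3 and 4 and 23360, 14990, 118.6 and 9126 FPKM in LIT927 replicates 1 to 4, and overlapped. The part of these shifts in the members' levels was not tested.

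For the values as deposited, the number of members was smaller than the number that a chance division would give, and after each scaling described below it was larger. The 7 libraries can be divided into 4 and 3 in 35 ways, so if the labels carried no information and all divisions were alike, 1 in 35 genes, or 310.3 of 10861, would be higher in every LIT927 library. The observed 100 were 0.322 of that number, and 99 genes, or 0.912%, were lower in every LIT927 library. After median-of-ratios and upper-quartile scaling the higher genes numbered 530 and 442, where 1 in 35 is 308.6 and 308.8, and after scaling without the 10 most abundant genes 477. The divisions were not alike, since vehicle replicate 4 was low and vehicle replicate 1 high for most genes. In the fit across all 16019 genes, limma called 0% of genes, with 0 higher and 0 lower at a Benjamini-Hochberg adjusted p under 0.05, and voom on the recovered fragments also called 0. At an unadjusted p under 0.05 limma had 115 higher and 474 lower genes, together fewer than the share of 0.05 expected if no gene differed. The balance moved with single libraries: 827 higher and 383 lower without LIT927 replicate 3, 49 and 1285 without vehicle replicate 4. When library weights estimated gene by gene were added, limma called 84 higher and 382 lower genes, an alternative chosen after seeing the data; weights from an iteration that did not converge gave 2841 and 3231.

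The members were spread over a wide range of levels and mostly separated by a narrow margin. Their mean level ran from 1.01 to 177.4 FPKM with a median of 6.402, close to the 7.05 of the genes tested. The gap, the lowest LIT927 value divided by the highest vehicle value, had a median of 1.06 and reached 1.48. It was at least 1.1 in 38 members, at least 1.2 in 11, at least 1.3 in 4 and at least 1.5 in 0. Among the 99 genes lower in every LIT927 library the mirrored gap had a median of 1.12, reached 2.34, and was at least 1.5 in 14. The ratio of the group means of the members ran from 1.16 to 3.44 with a median of 1.47. At the edge of the rule, Nudt18 (gap 1.0003), Cog1 (1.0008) and Fadd (1.0017) were just inside, while Polr2k (0.9997), Tasp1 (0.9997) and Ptprj (0.9977) were just outside, and 126 genes had a gap between 0.95 and 1. By mean level, Neu2 (1.01 FPKM), Tdrkh (1.02) and Tmem17 (1.04) were just inside, and Rnf208 (0.959), Inca1 (0.942) and Gpr157 (0.881) just outside.

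**Figure D1:**
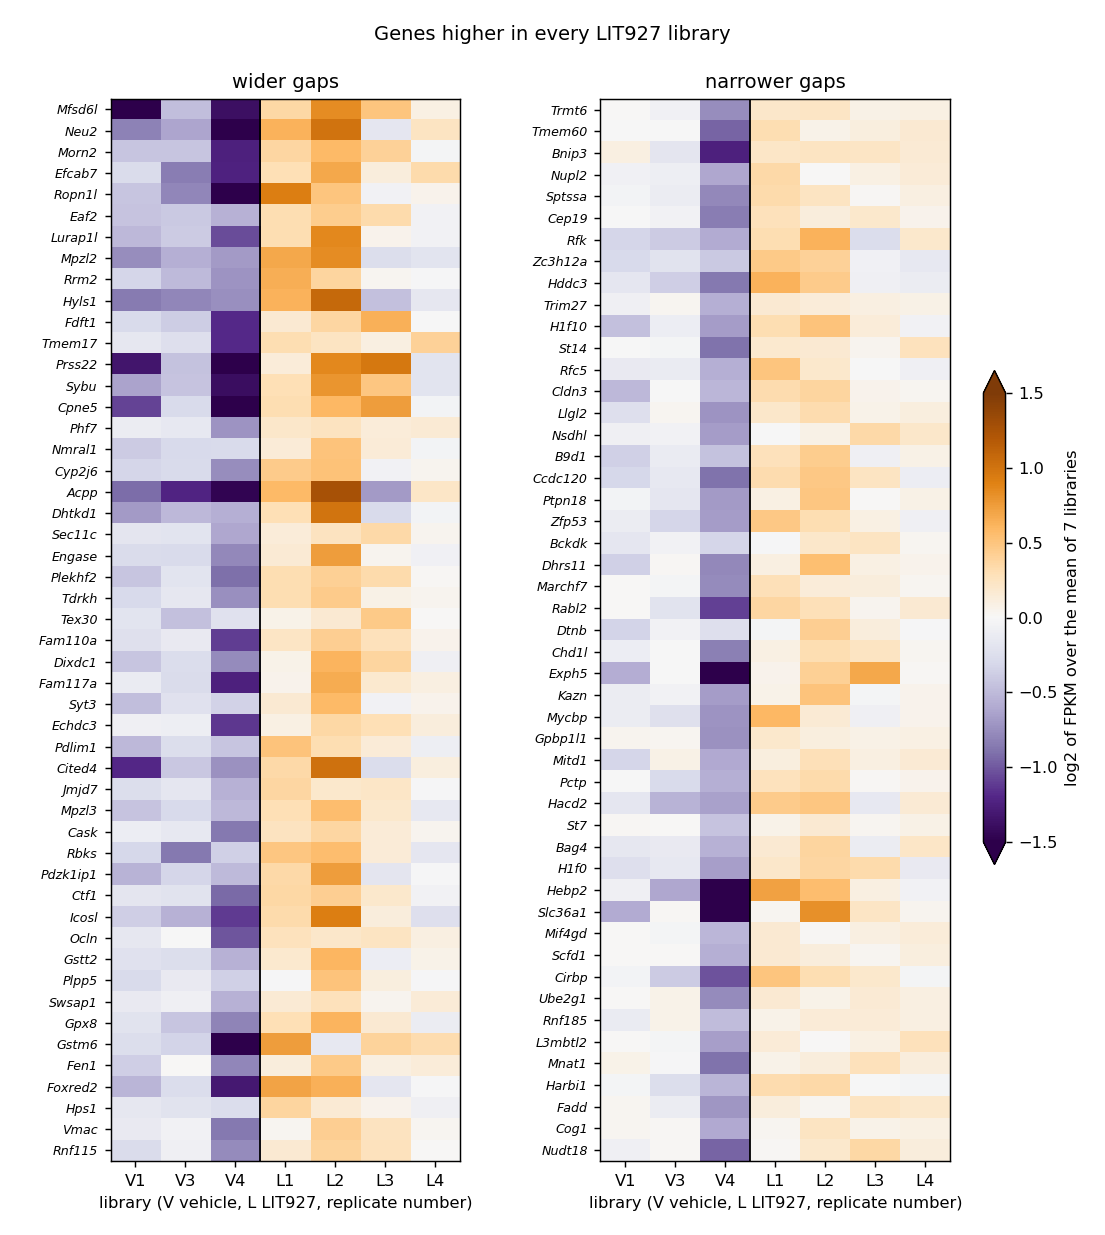
Level of 99 of the 100 members in each library, as log2 of the FPKM over the gene's mean of 7 libraries (colour; values beyond 1.5 are drawn at the end of the scale), with vehicle libraries left and LIT927 libraries right of the line and genes ordered by gap. Vehicle replicate 4 holds the lowest value of most genes, and LIT927 replicate 2, followed by replicate 1, most often holds the highest.

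The genes with the widest gap were Mfsd6l, Neu2, Morn2, Efcab7, Ropn1l, Eaf2, Lurap1l, Mpzl2, Rrm2 and Hyls1. Mfsd6l, a member of the major facilitator transporter superfamily (chromosome 11, 68556186 to 68558245, GENCODE M21 on GRCm38), was at 0.548, 1.13 and 0.605 FPKM in vehicle replicates 1, 3 and 4 and at 2.01, 2.81, 2.22 and 1.67 FPKM in LIT927 replicates 1 to 4. Its lowest LIT927 value was 1.48 times its highest vehicle value, and the means were 0.762 ± 0.323 (SD, n = 3) and 2.18 ± 0.478 (SD, n = 4). Neu2, a cytosolic sialidase that removes sialic acid from glycoconjugates, stood at 0.576, 0.652 and 0.166 FPKM in the vehicle libraries and at 1.56, 2.03, 0.899 and 1.19 FPKM in the LIT927 libraries. Vehicle replicate 4 was far below the other vehicle libraries for Neu2, and the other sialidases measured, Neu1 and Neu3, did not separate. Neu1, the lysosomal sialidase, was at 27.2, 21.9 and 18.1 FPKM in vehicle and 19.5, 17.1, 18.4 and 30.1 FPKM in LIT927.

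The next genes in this order were of other kinds. Eaf2, an ELL-associated transcription elongation factor known as androgen responsive in the prostate, was at 2.98, 3.05 and 2.73 FPKM in vehicle and 4.98, 5.44, 5.09 and 3.89 FPKM in LIT927, with all 3 vehicle values close together. Lurap1l was at 29.5, 32.04 and 20.3 FPKM in vehicle and 51.9, 76.1, 43.8 and 40.6 FPKM in LIT927, the highest level among these 10 genes. LIT927 replicate 2 held its highest value, as it did for 60 of the 100 members but for 15.03% of the genes tested.

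**Figure D2:**
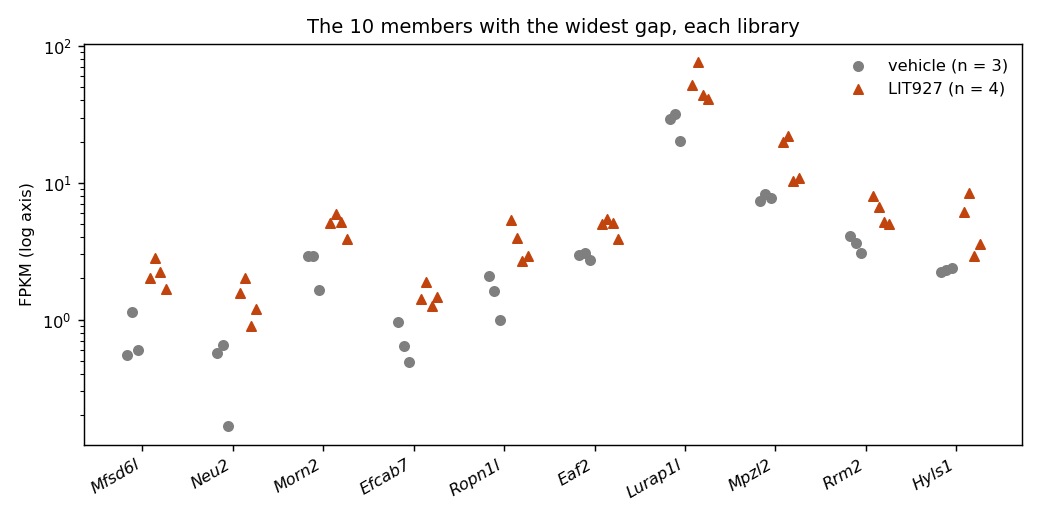
FPKM on a log axis of the 10 members with the widest gap, in each vehicle library (grey circles, n = 3) and each LIT927 library (orange triangles, n = 4), from left to right by replicate number. No LIT927 value of these genes lies at or below a vehicle value, which the rule requires; Hyls1 and Mpzl2 each have 2 LIT927 libraries near the vehicle values and 2 far above.

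Of the members, 8 were grouped as cilium, centriole and sperm tail genes; this and the role groups below were formed after the members were known. Primary cilia are single sensory protrusions built on a centriole, and motile cilia and sperm tails add dynein arms and radial spokes. Morn2, a protein of MORN repeats, was at 2.92, 2.91 and 1.66 FPKM in vehicle and 5.06, 5.88, 5.197 and 3.86 FPKM in LIT927. Ropn1l, a ropporin-like protein of the sperm tail that binds kinase anchoring proteins, was at 2.09, 1.62 and 0.996 FPKM in vehicle and 5.31, 3.97, 2.704 and 2.9 FPKM in LIT927. For both genes vehicle replicate 4 was lowest and no LIT927 library came near it. The exons of Morn2, Neu2 and Hyls1 overlap those of Dhx57, Ngef and Pus3 on the other strand; because the strand setting of the counting is not given, reads of such pairs may have been mixed. Efcab7, which holds the EVC complex of Hedgehog signalling at the base of the cilium, was at 0.956, 0.647 and 0.492 FPKM in vehicle and at 1.43, 1.87, 1.26 and 1.46 FPKM in LIT927.

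Hyls1, a centriole protein needed to build cilia, showed another shape. It was nearly constant in vehicle, at 2.22, 2.32 and 2.397 FPKM, and at 6.17, 8.46, 2.901 and 3.58 FPKM in LIT927, where replicates 1 and 2 were far above replicates 3 and 4. Its value in LIT927 replicate 3 was 1.25 times that in vehicle replicate 3. Tmem17 and B9d1, components of the gate at the base of the cilium, had means 1.66 and 1.41 times those of vehicle. Cep19 and Rabl2, partners that admit transport trains into the cilium, had ratios of means of 1.33 and 1.49. Other genes of the same structures did not separate. In lists added after the members were known, 2 of 18 transition zone genes tested, 2 of 13 radial spoke, dynein and cilium regulator genes and 0 of 26 intraflagellar transport and BBSome genes were members. Over all genes tested 0.921% were members, so a count of 0 in a list of this size says little. After median-of-ratios scaling 5 of the 8 kept a gap above 1. B9d2, the partner of B9d1, was at 5.14, 3.16 and 2.22 FPKM in vehicle and 6.101, 5.701, 2.34 and 4.24 FPKM in LIT927.

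The promoters of 5 of the 10 genes with the widest gaps and of B9d1 are shown because they are the stretches in which shared sequence motifs were looked for; the choice was made after the members were known. Each runs from 250 bases before to 50 bases after the RefSeq start, 5′ to 3′ on the gene's strand, on GRCm38.p6. Capitals mark matches on either strand to the GC box, the ETS motif, the CCAAT box, the antioxidant response element core or the RFX half-site.
Mfsd6l (chr11:68555936-68556235, + strand): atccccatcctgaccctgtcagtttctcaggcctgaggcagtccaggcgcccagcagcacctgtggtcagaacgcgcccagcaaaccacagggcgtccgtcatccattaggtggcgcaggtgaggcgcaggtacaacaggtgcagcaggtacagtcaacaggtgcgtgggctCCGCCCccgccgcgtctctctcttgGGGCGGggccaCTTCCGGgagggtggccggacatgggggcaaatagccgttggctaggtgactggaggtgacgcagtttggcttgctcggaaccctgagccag
Neu2 (chr1:87573777-87574076, + strand): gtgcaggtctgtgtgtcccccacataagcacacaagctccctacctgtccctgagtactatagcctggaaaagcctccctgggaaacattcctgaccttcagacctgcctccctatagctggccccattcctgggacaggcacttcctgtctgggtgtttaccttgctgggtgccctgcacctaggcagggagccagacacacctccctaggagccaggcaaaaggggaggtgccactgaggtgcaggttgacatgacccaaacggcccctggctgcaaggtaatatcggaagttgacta
Morn2 (chr17:80289962-80290261, + strand): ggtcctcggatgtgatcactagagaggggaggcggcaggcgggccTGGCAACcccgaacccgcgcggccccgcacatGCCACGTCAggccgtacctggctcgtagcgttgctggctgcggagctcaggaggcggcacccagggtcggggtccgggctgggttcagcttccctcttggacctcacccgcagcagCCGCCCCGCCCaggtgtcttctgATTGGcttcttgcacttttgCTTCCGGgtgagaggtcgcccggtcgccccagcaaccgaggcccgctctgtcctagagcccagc
Ropn1l (chr15:31453640-31453939, - strand): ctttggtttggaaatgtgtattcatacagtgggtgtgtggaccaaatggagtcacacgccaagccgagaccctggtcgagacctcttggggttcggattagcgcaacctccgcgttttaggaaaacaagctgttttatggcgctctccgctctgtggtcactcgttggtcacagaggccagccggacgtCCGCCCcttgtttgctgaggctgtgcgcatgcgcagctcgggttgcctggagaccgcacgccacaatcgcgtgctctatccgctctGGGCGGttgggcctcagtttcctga
Rrm2 (chr12:24708004-24708303, + strand): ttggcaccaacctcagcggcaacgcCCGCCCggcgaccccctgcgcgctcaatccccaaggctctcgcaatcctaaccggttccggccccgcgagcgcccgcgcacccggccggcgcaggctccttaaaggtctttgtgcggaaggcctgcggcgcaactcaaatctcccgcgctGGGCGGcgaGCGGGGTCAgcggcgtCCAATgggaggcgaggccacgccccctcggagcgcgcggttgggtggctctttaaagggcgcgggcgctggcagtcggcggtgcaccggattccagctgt
B9d1 (chr11:61504894-61505193, + strand): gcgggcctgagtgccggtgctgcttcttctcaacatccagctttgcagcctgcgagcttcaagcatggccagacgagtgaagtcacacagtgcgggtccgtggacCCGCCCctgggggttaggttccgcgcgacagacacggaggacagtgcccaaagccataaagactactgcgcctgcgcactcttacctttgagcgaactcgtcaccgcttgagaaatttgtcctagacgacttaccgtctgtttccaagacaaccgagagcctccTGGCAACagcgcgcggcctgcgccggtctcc
Promoter entries were found for 82 of the 100 members. The motifs were searched on both strands. They were the TATA box TATAAA, the CCAAT box, the GC box GGGCGG, the E-box CACGTG, the cAMP response element TGACGTCA, the antioxidant response element core TGACNNNGC known for binding NRF2, the ETS motif CCGGAAG, and the full androgen receptor element. After the members were known, the RFX half-site GTTGCCA, the sterol regulatory element core TCACNCCAC and the E2F motif TTTCCCGC were added. The GC box was in 62.2% of members' promoters and in 66.5% of those of the genes tested, and the CCAAT box in 40.2% and 38.3%. The ETS motif was in 17.1% and 18.9%, the TATA box in 9.76% and 7.18%, the E-box in 11% and 10.4%, and the cAMP element in 1.22% and 3.25%. The antioxidant core was in 20 of 82 members' promoters, or 24.4%, against 14.98% of 8716 tested promoters, 12.47% of all 27025 promoters and 16 of 80 of those of the genes lower in every LIT927 library. RFX half-sites were in 7.32% against 3.56%, the sterol core in 0% against 0.99%, the E2F motif in 2.44% against 1.98%, and the androgen element in 0 of either. Among the promoters printed, Morn2 and Rrm2 held the antioxidant core, Morn2 and B9d1 an RFX half-site, and Neu2 none of these motifs. These are matches of letters and are not evidence of binding.

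Genes of epithelial contact and polarity formed a group of 10 members. Claudins and occludin make the tight junctions that seal the luminal surface. Cldn3, the most abundant member (chromosome 5, 134986214 to 134987472), was at 124.5, 176.1 and 123.2 FPKM in vehicle and 221.5, 231.4, 184.1 and 181.3 FPKM in LIT927. Ocln, which encodes occludin, was at 13.2, 14.6 and 7.32 FPKM in vehicle and 17.7, 17.02, 17.4 and 15.9 FPKM in LIT927. Only vehicle replicate 4 was far from the rest for Ocln, and vehicle replicate 3 approached the lowest LIT927 values of both genes. These were 2 of the 18 tight junction genes tested, of which 16 had a higher and 2 a lower mean log2 level in LIT927, with a median difference of 0.36. Over all genes tested 0.921% were members, 63.8% had a higher mean log2 level in LIT927, and the median difference was 0.08. Cldn4 (106.1, 100.5 and 47.2 FPKM in vehicle, 102.1, 69.4, 123.9 and 97.7 FPKM in LIT927) overlapped, and Cldn7 overlapped with a gap of 0.855.

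Mpzl2 and Mpzl3, adhesion proteins with an immunoglobulin domain, lie 1171 bases apart on chromosome 9 and were both members. Mpzl2 was at 7.32, 8.32 and 7.695 FPKM in vehicle and at 19.9, 22.1, 10.4 and 10.9 FPKM in LIT927, with replicates 1 and 2 far above replicates 3 and 4. Mpzl3 was at 3.97, 4.38 and 3.77 FPKM in vehicle and 6.59, 7.92, 6.17 and 4.84 FPKM in LIT927, while Mpzl1, encoded elsewhere, overlapped with a gap of 0.612. Of the surface proteases, Prss22, a tryptase-like serine protease, had the largest ratio of means of all members, 3.44, but at low level: 0.7399, 1.36 and 0.2295 FPKM in vehicle and 2.04, 3.38, 3.65 and 1.63 FPKM in LIT927. It was named after its values were seen, as were St14 (matriptase), the polarity gene Llgl2 with a ratio of means of 1.37, the scaffold gene Cask with 1.45, Pdlim1 with 1.55 and Kazn, a desmosome-associated gene, with 1.34. St14 was at 31.1, 30.5 and 16.8 FPKM in vehicle and 35.5, 34.96, 32.05 and 37.4 FPKM in LIT927, and only vehicle replicate 4 lay far below the other libraries. Of the 10 members of the group 4 kept a gap above 1 after median-of-ratios scaling.

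Among sterol and lipid enzymes, 7 members were counted. Fdft1, squalene synthase, the first enzyme committed to sterols (chromosome 14, 63145150 to 63179578), was at 6.95, 6.503 and 3.696 FPKM in vehicle and 9.52, 10.9, 13.2 and 8.397 FPKM in LIT927, with LIT927 replicate 3 highest. Nsdhl, a dehydrogenase of later sterol synthesis, was at 10.1, 10.3 and 6.68 FPKM in vehicle and 10.6, 11.3, 13.6 and 12.3 FPKM in LIT927, and its lowest LIT927 value was 1.03 times its highest vehicle value. They were 2 of 22 cholesterol synthesis genes tested, where 0.921% of all genes tested were members. Of the 22, 19 had a higher mean log2 level in LIT927, against 63.8% of all genes tested, with a median difference of 0.15 against 0.08. The exons of Fdft1 overlap those of Ctsb on the other strand, at 163.1 FPKM on average, with the same uncertainty of strand, and Ctsb itself did not separate (gap 0.318).

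Sptssa, a small subunit of serine palmitoyltransferase, which starts sphingolipid synthesis, was at 79.7, 76.3 and 47.9 FPKM in vehicle and 103.2, 96.7, 83.03 and 88.4 FPKM in LIT927. Plpp5, a phospholipid phosphatase, was at 42.3, 46.9 and 40.2 FPKM in vehicle and 50.7, 73.5, 55.8 and 50.9 FPKM in LIT927. Hacd2 (a dehydratase of fatty acid elongation), Pctp (a phosphatidylcholine carrier) and Cyp2j6 (a cytochrome P450) had ratios of means of 1.62, 1.36 and 1.63. After median-of-ratios scaling 2 of the 7 kept a gap above 1.

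The 3 members of the next group conjugate or oxidise glutathione: the transferases Gstt2 and Gstm6 and the endoplasmic reticulum peroxidase Gpx8. Gpx8 was at 27.8, 23.8 and 18.4 FPKM in vehicle and 39.6, 49.3, 36.03 and 29.8 FPKM in LIT927. Gstt2 was at 10.6, 10.4 and 8.39 FPKM in vehicle and 13.99, 18.9, 11.5 and 12.9 FPKM in LIT927. Gstm6 was at 1.37, 1.29 and 0.366 FPKM in vehicle and 2.73, 1.47, 2.15 and 2.03 FPKM in LIT927, with LIT927 replicate 2 close to the vehicle libraries and vehicle replicate 4 resting on 21 fragments. Gstm6 alone of the 3 kept a gap above 1 after median-of-ratios scaling. They were 3 of 32 glutathione enzyme genes tested, where 0.921% of all genes tested were members. Of the 32, 28 had a higher mean log2 level in LIT927, against 63.8% of all genes tested, and the median difference was 0.44 against 0.08. Abundant relatives overlapped between the groups: Gstm7, for one, was at 12.2, 4.19 and 9.46 FPKM in vehicle and 37.6, 61.01, 3.93 and 29.9 FPKM in LIT927, where replicate 3 was below every vehicle library. Gstm genes are near copies of one another, so fragments may have been shared between them. Of 16 other NRF2 target genes tested, 0 were members, which says little for a list of this size at the overall share of 0.921%.

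A group of 10 members act in DNA replication, repair or chromatin. Rrm2, the small subunit of ribonucleotide reductase, which makes deoxyribonucleotides, was at 4.06, 3.604 and 3.08 FPKM in vehicle and 7.95, 6.64, 5.201 and 5.04 FPKM in LIT927. Fen1, the flap endonuclease of lagging strand synthesis, was at 4.31, 5.58 and 3.22 FPKM in vehicle and 6.05, 7.67, 5.97 and 6.08 FPKM in LIT927. Rfc5, a subunit of the clamp loader, was at 4.77, 4.82 and 3.52 FPKM in vehicle and 7.43, 5.997, 5.204 and 4.96 FPKM in LIT927. The exons of Fen1 and Rfc5 overlap those of Tmem258 and Wsb2 on the other strand, at 141.4 and 28.28 FPKM on average. The uncertainty of strand given above applies to them, and neither partner separated (gaps 0.685 and 0.648). The clamp loader's other 4 subunits did not separate, with gaps of 0.794 (Rfc1), 0.618 (Rfc2), 0.909 (Rfc3) and 0.811 (Rfc4), nor did Rrm1 (0.65). Of 21 cell cycle genes tested, only Rrm2 was a member, against 0.921% of all genes tested. In a replication fork list 3 of 26 were, but that list was added after the members were known, so nothing is read from its share. The linker histones H1f0 and H1f10 were both members: H1f0 stood at 55.05, 58.3 and 41.1 FPKM in vehicle and 74.8, 83.8, 81.5 and 59.01 FPKM in LIT927. H1f10 was at 5.87, 7.57 and 5.07 FPKM in vehicle and 10.1, 11.5, 8.89 and 7.805 FPKM in LIT927. H1f3 was at 3.21, 5.63 and 2.41 FPKM in vehicle and at 2.13, 3.08, 2.97 and 1.7 FPKM in LIT927, with overlapping groups. The chromatin and repair genes Phf7, Swsap1, Chd1l, L3mbtl2 and Mnat1 completed the group, with ratios of means of 1.41, 1.32, 1.35, 1.26 and 1.297. After median-of-ratios scaling 4 of the 10 kept a gap above 1.

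In the secretory pathway Sec11c, a catalytic subunit of signal peptidase, was at 103.6, 103.4 and 77.1 FPKM in vehicle and 129.6, 140.5, 149.4 and 120.8 FPKM in LIT927. Its lowest LIT927 value was 1.17 times its highest vehicle value as deposited, but 0.899 times after median-of-ratios and 0.918 times after upper-quartile scaling, where the groups overlapped. Its counterpart Sec11a was at 88, 61.4 and 45.1 FPKM in vehicle and 81.7, 61.9, 44.7 and 82.01 FPKM in LIT927, and its groups overlapped. Sec11c was the single member among 49 signal peptide, translocation and N-glycosylation genes tested, where 0.921% of all genes tested were members. Of the 49, 47 had a higher mean log2 level in LIT927, against 63.8% of all genes tested, with a median difference of 0.18 against 0.08. The group also held Engase, which trims free N-glycans, and 7 members of membrane traffic. Scfd1, which acts in fusion of vesicles with the Golgi, and Cog1, a Golgi tether subunit, had the smallest ratios of means of the group, 1.203 and 1.201. Sybu, a linker of vesicles to kinesin, had the largest, 2.23, at 1.27, 1.45 and 0.75 FPKM in vehicle and 2.42, 3.403, 2.76 and 1.73 FPKM in LIT927. Engase, Plekhf2, Syt3, Hps1 and Exph5 lay between them. After median-of-ratios scaling 2 of the 9 kept a gap above 1. The 5 ubiquitin ligase or conjugating genes, Rnf115, Trim27, Marchf7, Ube2g1 and Rnf185, were likewise near the edge, with ratios of means of 1.21 to 1.47 and none separated after median-of-ratios scaling.

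Signalling and transcription genes among the members included some with the largest differences, named after their values were seen apart from Eaf2, Cited4 and Fadd. Acpp, prostatic acid phosphatase, an androgen-responsive product of luminal cells (chromosome 9, 104288251 to 104337748), was at 4.25, 3.44 and 2.92 FPKM in vehicle and 11.9, 19.2, 4.999 and 9.29 FPKM in LIT927. Its ratio of means was 3.21, with LIT927 replicate 3 closest to the vehicle libraries and LIT927 replicate 2 highest. It was the single member of 13 androgen receptor and target genes tested, where 0.921% of all genes tested were members. Of the 13, 9 had a lower mean log2 level in LIT927, while 63.8% of all genes tested had a higher one. Cited4, a coactivator that binds CBP and p300, was at 30.4, 52.4 and 42.05 FPKM in vehicle and 89.01, 141.4, 58.1 and 75.2 FPKM in LIT927. Its relatives did not separate: Cited1 was at 87.3, 6.32 and 11.9 FPKM in vehicle and 136.2, 83.96, 11.3 and 58.7 FPKM in LIT927.

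Several members of this group take part in immune signalling. Icosl, the ligand of the T cell costimulator ICOS, was at 4.998, 4.37 and 2.98 FPKM in vehicle and 8.14, 12.2, 7.01 and 5.46 FPKM in LIT927. Ctf1, a cytokine of the interleukin 6 family, was at 6.42, 6.34 and 3.83 FPKM in vehicle and 9.35, 9.84, 8.37 and 7.05 FPKM in LIT927. Zc3h12a, an endonuclease that degrades cytokine transcripts, and Fadd, an adaptor of death receptors, had ratios of means of 1.41 and 1.3. Of the signalling and transcription group, 6 of 9 kept a gap above 1 after median-of-ratios scaling. T and NK cell markers summed lower in the LIT927 libraries, in which the rule requires every member to stand higher. The opposite direction of these genes and those markers was therefore fixed by the selection, and nothing is read from it. Markers of several other cell types also had lower means there, as given above. In which cells these genes were transcribed was not tested.

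A group of 5 members serve metabolism in mitochondria or of small molecules. Rfk, riboflavin kinase, which makes the first flavin cofactor, was at 48.4, 46.2 and 40.2 FPKM in vehicle and 75.3, 93.8, 50.3 and 69.3 FPKM in LIT927. Bckdk, the kinase that restrains branched-chain amino acid breakdown, was at 42.1, 45.9 and 37.8 FPKM in vehicle and 47.1, 54.6, 56.3 and 48.6 FPKM in LIT927. Dhtkd1, of lysine breakdown, and Rbks, ribokinase, had ratios of means of 1.88 and 1.71, and Bnip3, a mitophagy receptor, of 1.47. Bnip3 alone of the 5 kept a gap above 1 after median-of-ratios scaling. The mitochondrial lists held 0 of 48 complex I genes, 0 of 78 mitochondrial ribosomal proteins and 0 of 17 ATP synthase genes as members. Over all genes tested 0.921% were members, so a count of 0 says little about lists of this size. A higher mean log2 level in LIT927 was found for 45 of 48, 75 of 78 and 17 of 17 of these genes, against 63.8% of all genes tested. The median differences were 0.21, 0.21 and 0.17, against 0.08. Pdzk1ip1, a small membrane protein of epithelia, had no list and was the second most abundant member, at 91.7, 106.7 and 94.9 FPKM in vehicle and 169.9, 222.8, 117.4 and 131.4 FPKM in LIT927.

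The other 34 members, Mfsd6l, Neu2, Lurap1l and Pdzk1ip1 among them, were put in no role group. Their means ran from 1.01 to 133.5 FPKM and their ratios of means from 1.16 to 3.05, with a median of 1.47, and 12 of them kept a gap above 1 after median-of-ratios scaling. Cirbp, a cold-inducible RNA-binding protein, was at 35.05, 27.3 and 17.7 FPKM in vehicle and 51.03, 44.5, 41.1 and 35.2 FPKM in LIT927. Slc36a1, a proton-coupled amino acid transporter of lysosomes, was at 8.12, 12.3 and 4.12 FPKM in vehicle and 12.5, 21.5, 14.3 and 12.6 FPKM in LIT927. Cpne5, a calcium-dependent phospholipid-binding protein, was at 1.28, 2.21 and 0.851 FPKM in vehicle and 3.36, 4.06, 4.52 and 2.62 FPKM in LIT927. In all 3 genes vehicle replicate 4 was lowest, and in Cirbp and Slc36a1 a vehicle library lay next to the lowest LIT927 library. These 3 were named after their values were seen.

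Over all 45 pathway lists, 15 of the 100 members were in at least 1 list, and 15.4% of the genes tested were. Members appeared in 11 lists, and in 3 of these there were 2 or more: glutathione enzymes, cholesterol synthesis and tight junctions. The lists were chosen with earlier results of these data known. By position, 13 members lay on chromosome 11, which carried 8.64% of the genes tested, and 4 pairs of members were adjacent or near on a chromosome, of which Mpzl2 and Mpzl3 were closest. Exons of 38 members overlap another annotated gene, and of the 14 overlapping partners measured 0 were higher in every LIT927 library. Over all genes tested 0.921% were, so 0 of 14 says little.

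Which library set the gap differed between the members and the other genes. The lowest LIT927 value of a member was in replicate 4 for 47 genes and in replicate 3 for 35, whereas for the genes tested replicate 4 was lowest in 6.89% and replicate 3 in 66.0%. The highest vehicle value of a member was in replicate 3 for 51 and in replicate 1 for 47, against 21.7% and 75.04% of the genes tested. The median level of the members, relative to each gene's mean of 7 libraries, was 0.857, 0.878 and 0.597 in vehicle replicates 1, 3 and 4 and 1.204, 1.32, 1.08 and 1.03 in LIT927 replicates 1 to 4. The same median over all genes tested was 1.22, 1.02 and 0.63 in vehicle and 1.09, 0.98, 0.818 and 1.11 in LIT927. Relative to the other genes of the same library, the members thus stood highest in LIT927 replicates 2 and 3 and lowest in vehicle replicate 1. In LIT927 replicate 4 they stood below the median of the genes tested, as in all vehicle libraries. Between the libraries numbered 4 the median ratio, LIT927 over vehicle, was 1.739 for members and 1.759 for the genes tested. On this relative measure the members therefore did not stand higher in every LIT927 library.

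**Figure D3:**
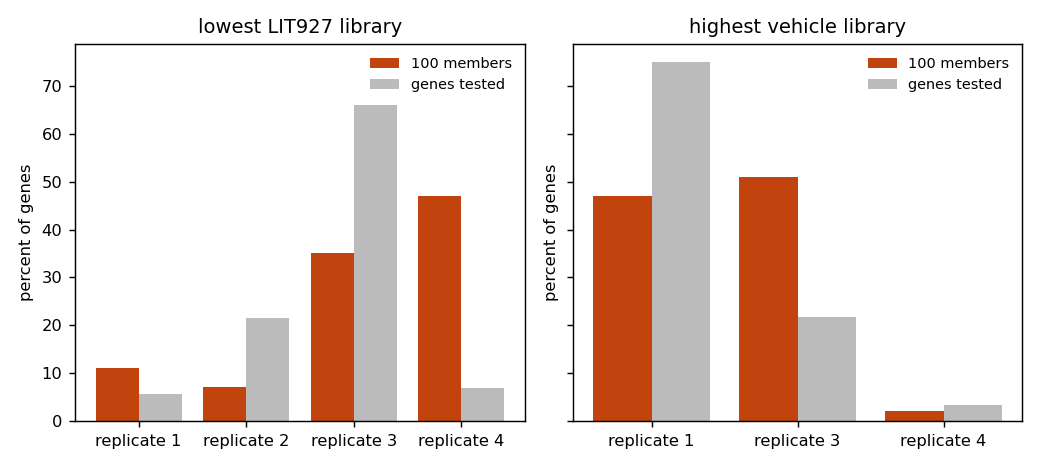
Percent of the 100 members (orange) and of the 10861 genes tested (grey) whose lowest LIT927 value (left) or highest vehicle value (right) was in each library. Replicate 4 holds the lowest LIT927 value of 47 members but of 6.89% of the genes tested.

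The list of members depended on how the libraries were put on a common scale. After median-of-ratios scaling, which aligns the typical gene of each library, 530 genes were higher and 361 lower in every LIT927 library, where 1 in 35 is 308.6. Only 36 of the 100 members were among the 530, and Neu2 kept its gap but fell under the floor. After upper-quartile scaling the counts were 442 and 378, with 44 members kept. Scaling by the sum without the 10 most abundant genes, added after seeing the data, gave 477 higher and 187 lower with 87 members kept. All 100 members kept a higher mean log2 level in LIT927 under the first 2 scalings, with a median difference of 0.45 after median-of-ratios scaling against 0.49 as deposited. Since the members were selected on this contrast, a higher mean follows largely from the rule, and nothing is read from it.

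By gene, 37 members kept a gap above 1 under all 3 scalings and 13 under none. Among the 37 were Mfsd6l, Neu2, Morn2, Efcab7, Ropn1l, Lurap1l, Tmem17, Rabl2, Fdft1, Gstm6, Ocln, St14, Prss22, Fen1, Acpp, Cited4, Icosl and Sptssa. For Efcab7 the gap grew from 1.32 to 1.698 after median-of-ratios scaling, and for Neu2 from 1.38 to 1.698. Among the 13 were Hyls1, Mpzl3, Plpp5, Bckdk, Dhtkd1, Rbks, Pdlim1 and Syt3. In all 13, vehicle replicate 4 was at 0.824 or more of the highest vehicle value, with a median of 0.914, whereas in the 37 that share had a median of 0.518. Eaf2 fell from 1.27 to 0.816 and Mpzl2 from 1.25 to 0.81, so that their groups overlapped.

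**Figure D4:**
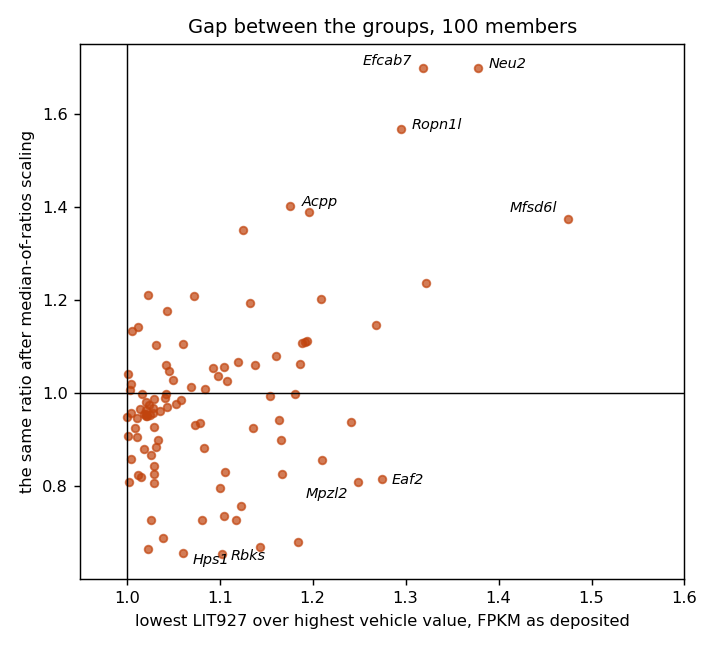
Gap of each of the 100 members (points), the lowest LIT927 over the highest vehicle value, as deposited (horizontal axis) and after median-of-ratios scaling (vertical axis), with lines at 1. The 37 members above the horizontal line keep separate groups after scaling, among them Neu2, Efcab7 and Ropn1l, while Eaf2, Mpzl2, Rbks and Hps1 fall below it.

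The count also depended on single libraries. Without vehicle replicate 1 it was 741, without vehicle replicate 3 416 and without vehicle replicate 4 111, where 1 division of 6 libraries is 6.67% of genes. Without LIT927 replicate 1, 2, 3 or 4 it was 114, 112, 1062 or 175, where 1 division is 5%. The lower genes numbered 1485 without vehicle replicate 4 and 110 to 292 without 1 LIT927 library. LIT927 replicate 3 and vehicle replicate 1 therefore kept the largest numbers of genes from the list.

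**Figure D5:**
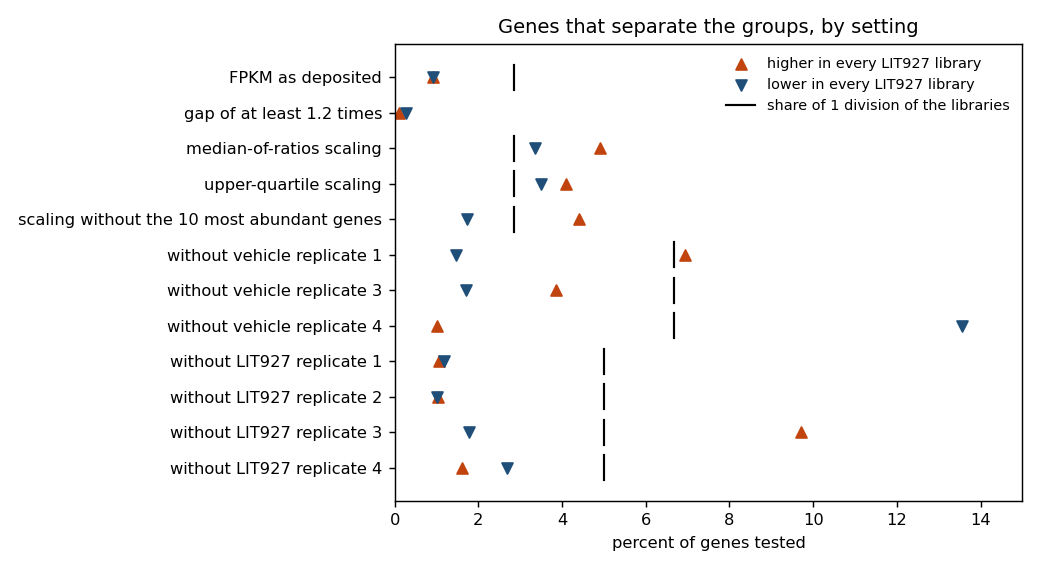
Percent of the genes tested that were higher (orange) or lower (blue) in every LIT927 library for the values as deposited, a wider gap, 3 scalings and each library left out; short vertical lines mark the share of 1 division of the libraries used (2.86% for all 7). The genes higher in every LIT927 library, 0.921% as deposited, lie left of the line there and right of it after each scaling.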

How the data were processed

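RNA-seq libraries of mouse prostate, 3 vehicle and 4 LIT927, were grouped by the treatment in the labels. Total RNA was extracted with TRIzol, per the labels' protocols. Per the submitters' processing notes, fastp, HISAT2 and HTSeq were used with the build mm10. Versions, settings, gene annotation and strand setting are not given.

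Values deposited by the authors are FPKM. This unit was inferred, since within a gene low values are whole multiples of a step. Whole fragments were recovered within 0.01 for 16004 of 16019 genes, and served to state depth and for voom.

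The rule of selection was applied to FPKM as deposited. Across all genes, limma 3.58.1 in R 4.3.3 was fitted, with its trend option and neither covariate nor filter, to log2(FPKM + 1) of all 7 libraries, and p-values were adjusted by the Benjamini-Hochberg method. Log2 differences are LIT927 minus vehicle on this scale, so changes of low genes are understated. The code was tested on simulated data.

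The members and lists were chosen with earlier results of these data known. Named genes were the 10 with the widest gap, the 8 with the highest mean level, members of lists holding at least 2, and those next to each threshold; others were named after their values were seen. The 9 role groups, 6 further lists, 3 motifs and the promoters shown were chosen after the members were known. Alternatives were a pseudocount of 0.1, other floors, 3 scalings, library weights, a replicate block and leaving out libraries. Gene positions are from GENCODE M21, and promoters from RefSeq on GRCm38.p6. The other steps used pandas 2.3.3, NumPy 2.4.6 and matplotlib 3.10.9 under Python 3.11.15. The values of 1 member are not reported here.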

Additional observations from a re-analysis of the deposited data

Results flagged for a closer look

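Among the genes at the edge of the rule, Tasp1, which encodes a protease that cleaves the MLL histone methyltransferase, had 1 LIT927 library far from the others. It was at 2.63 FPKM in LIT927 replicate 3 and at 1.87 to 1.97 FPKM in the other 3, so the gap to the nearest was 0.876 of the whole range (Dixon's criterion for 4 samples). About 1 group in 20 is marked in this way by chance.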

How the results depend on the processing

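The number of genes higher in every LIT927 library was 100, and that of genes lower in every one 99. The counts (higher, then lower) were 530 and 361 after median-of-ratios scaling, 442 and 378 after upper-quartile scaling, and 477 and 187 after scaling without the 10 most abundant genes, which was chosen after seeing the data. They were 156 and 326 with no floor, 58 and 39 with a floor of 5 FPKM, 11 and 29 with a gap of at least 1.2, and 1457 and 270 without both libraries numbered 3. Leaving out 1 library gave 111 to 1062 higher and 110 to 1485 lower genes. With fewer libraries more genes separate by chance: 1 division is 2.86% of genes for all 7 libraries and 5% or 6.67% without 1. It is larger still without both libraries numbered 3, where 13.46% were higher and 2.494% lower. With a replicate block, comparing only libraries of the same number, 864 genes (7.955% of those tested) were higher and 270 (2.486%) lower. This asks less of a gene than the rule, so more genes pass by chance. Same-numbered libraries deviated together for numbers 1 (correlation 0.578) and 3 (0.759) but not 4 (-0.167), so the numbers were not taken as pairing. Vehicle replicates 1 and 4 correlated best with LIT927 replicates 4 and 2. By limma the counts of 0 and 0 held with the pseudocount of 0.1, the filter, both scalings fixed at the outset, voom, each library left out (0 to 0) and the replicate block (0 and 0). Library weights gave 2841 and 3231, but their iteration did not converge and gave vehicle replicate 3 a weight of 31.5 against 0.122 to 2.26 for the others; weights estimated gene by gene, chosen after seeing the data, gave 84 and 382. Of 350 alternative values of 35 named genes 341 moved by less than 1 SD, 9 by more and 0 changed sign. For a gene that separates the groups, leaving out 1 library or changing the pseudocount cannot change the sign. The absence of sign changes was therefore fixed by the rule for most of these values and is no support for the members. The cause of these changes was not tested. Depth was even, and members at about 1 FPKM rest on few fragments.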
